A study of Mus musculus with 2 samples.

Results

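Semaphorins, plexins and a neuropilin were compared between a pair of sorted bone marrow cell populations. The group holds 10 genes, chosen by symbol as ligands and receptors that act between bone cells: the semaphorin genes Sema3a, Sema4a, Sema4d and Sema6d, the plexin genes Plxna1, Plxnb1, Plxnb2, Plxnc1 and Plxnd1, and the neuropilin gene Nrp1. All 10 were measured, by 11 probe sets that name a single gene, among 19935 genes in all and among 31 genes of the semaphorin, plexin and neuropilin families.

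The first population was labelled RANKhigh c-Fmslow and the other RANKlow c-Fmshigh. RANK binds RANKL, the cytokine that drives osteoclast formation, and c-Fms binds macrophage colony-stimulating factor. Both populations came from marrow of 6-week-old mice of the outbred ddY strain. Mononuclear cells were collected from a density gradient, stained with antibodies to both receptors and separated by flow cytometry, with no other treatment stated. Each population was hybridised to 1 single-channel array, and the labels do not say how many mice an array stands for. Every value below is therefore a single measurement without replicate error, no test was possible, and none of the differences could be checked against a replicate. The populations are gates on surface protein and can hold several cell types, so that fewer cells of a type and less RNA per cell cannot be told apart.

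Semaphorins are secreted or membrane-bound ligands, and plexins are their transmembrane receptors, whose intracellular part acts on small GTPases and through them on the cytoskeleton and on integrin adhesion. Class 3 semaphorins such as Sema3A bind a neuropilin, which has only a short intracellular tail and signals together with a class A plexin. In bone, Sema4D made by osteoclasts acts on plexin-B1 of osteoblasts and restrains bone formation, Sema3A acts through neuropilin-1 on both osteoclast precursors and osteoblasts, and Sema6D acts through plexin-A1 with the Trem2 and DAP12 signalling complex in osteoclast formation.

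Of the sort markers, the c-Fms gene Csf1r stood at an intensity of 164 in RANKhigh c-Fmslow cells and 821 in RANKlow c-Fmshigh cells, in the direction of the labels. The RANK gene Tnfrsf11a stood at 104 and 119, a small difference of 1.15-fold against the direction of the labels. Median intensities of all probe sets were 94.5 and 92.6. As a guide to background, the 95th percentile of 1189 olfactory and vomeronasal receptor genes was taken on each array, which was 83.8 on the RANKhigh c-Fmslow array and 81.8 on the RANKlow c-Fmshigh array. A gene above its array's guide is called measurable here. Genes were counted at 2-fold among the 11089 that reached 93.6, the median over both arrays, on at least 1 of them. Log2 differences are those of RANKhigh c-Fmslow minus RANKlow c-Fmshigh throughout. That of Tnfrsf11a was -0.20, and 3596 of the 11089 genes lay at least as far in this direction. Both Tnfrsf11a values were not far above the guides.

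The largest differences were those of a neuropilin and a plexin gene. Nrp1 and Plxnb2 were at least 2-fold lower in RANKhigh c-Fmslow cells, and no member was at least 2-fold higher. Of the 10 members, 8 passed the level filter, and of these 2 were lower in RANKhigh c-Fmslow cells by 2-fold or more, 0 were higher by that much and 6 lay in between. Among all genes that passed, 4.26% were lower and 4.34% higher by 2-fold or more. The median log2 difference was -0.24 over all 10 members and -0.38 over the 8 that passed, beside 0.01 over all 19935 genes and -0.01 over the 11089 that passed. The median over all 10 was -0.16 with 50 added to both intensities and -0.05 with the brightest probe set of each gene, a choice that changes only Sema4d among the members. With so few members, these counts describe the genes named and give no verdict on the families.

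**Figure D1:**
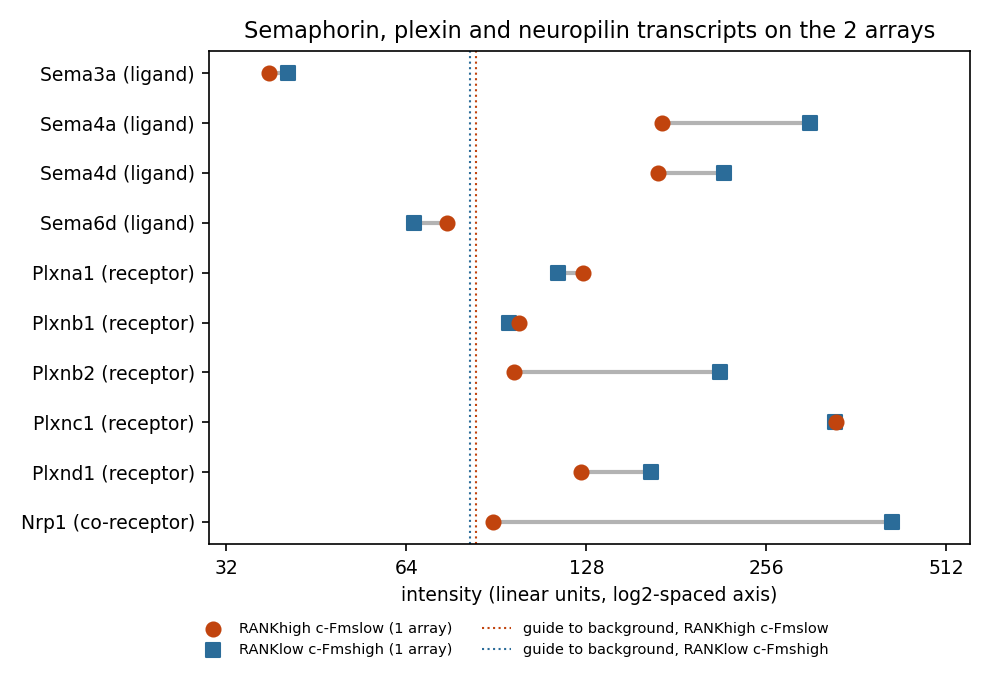
Intensity of each of the 10 members in RANKhigh c-Fmslow cells (circles) and RANKlow c-Fmshigh cells (squares), 1 array each, on a log2-spaced axis; dotted lines mark the guide to background of each array (83.8 and 81.8). The longest gap is that of Nrp1 (89.4 against 416), followed by Plxnb2 (96.9 against 214) and Sema4a (171 against 303), while the points of Plxnc1 coincide and both Sema3a and Sema6d lie left of the lines.

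Nrp1, the co-receptor for class 3 semaphorins and for vascular endothelial growth factor, had an intensity of 89.4 in RANKhigh c-Fmslow cells and 416 in RANKlow c-Fmshigh cells. The log2 difference was -2.22, a 4.65-fold lower level. The value in RANKhigh c-Fmslow cells lay just above the guide of its array, whereas that in RANKlow c-Fmshigh cells was far above it. Of the 11089 genes, 33 (0.298%) lay at least as far in this direction, Nrp1 included. For comparison, 22 genes lay at least as far as the sort marker Csf1r, at -2.33.

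Plexins divided into 2 that were lower and 3 that were nearly level. Plxnb2, which encodes the broadly expressed B-class plexin that binds class 4 semaphorins, stood at 96.9 in RANKhigh c-Fmslow cells and 214 in RANKlow c-Fmshigh cells. This was 2.21-fold lower (log2 difference -1.14), and 348 genes (3.14%) lay at least as far in this direction. The Plxnb2 value in RANKhigh c-Fmslow cells was close above the guide. Plxnd1, the receptor of Sema3E in vessels and thymocytes, stood at 125 and 164 (1.31-fold lower, -0.39), a size that 20.3% of genes reached or exceeded in this direction. Its difference was thus of a size common among all genes.

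The remaining plexins differed by 0.14 or less on the log2 scale. Plxna1, the partner of neuropilin-1 and receptor of Sema6D, stood at 126 in RANKhigh c-Fmslow cells and 115 in RANKlow c-Fmshigh cells (0.14). Plxnb1, the receptor of Sema4D, stood at 98.8 and 94.9 (0.06), both close above the guides. Plxnc1, the receptor of Sema7A, had the smallest difference of the members, with 335 in RANKhigh c-Fmslow cells and 334 in RANKlow c-Fmshigh cells (log2 difference 0.0043). Without replicates, it cannot be stated how close the levels in the underlying populations were.

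Receptor genes that share a ligand differed unequally between the populations for Sema3A and Sema4D. For the Sema3A receptor complex, Nrp1 was 4.65-fold lower in RANKhigh c-Fmslow cells and Plxna1 1.10-fold higher. For the plexin receptors of Sema4D, Plxnb2 was 2.21-fold lower and Plxnb1 1.04-fold higher, with both Plxnb1 values close above the guides. Cd72, which encodes a receptor of Sema4D outside the plexins, was 3.52-fold higher. The Sema6D receptor components Plxna1 and Trem2 both differed little (0.14 and 0.09), and Tyrobp, which encodes DAP12, had a log2 difference of -0.72.

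**Figure D2:**
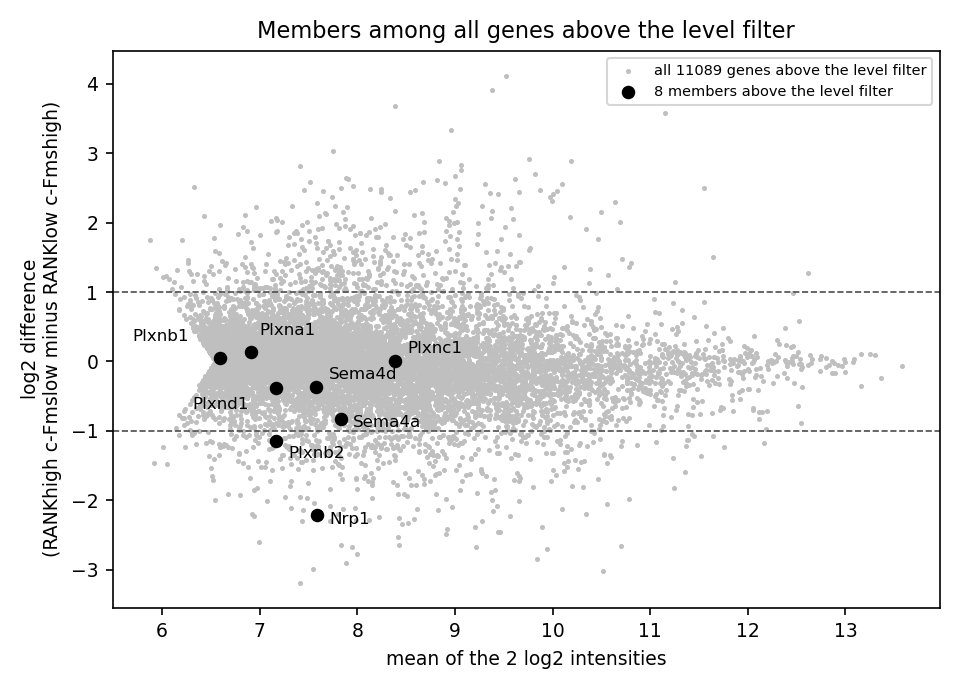
Log2 difference (RANKhigh c-Fmslow minus RANKlow c-Fmshigh) against the mean of both log2 intensities for the 11089 genes above the level filter (grey) and the 8 members among them (black); dashed lines mark 2-fold. Nrp1 (-2.22) and Plxnb2 (-1.14) lie below the lower line, Sema4a (-0.82) just above it, and the others between -0.39 and 0.14.

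Of the 4 ligand transcripts, Sema3a and Sema6d failed the level filter, and neither Sema4a nor Sema4d was 2-fold apart. Among all genes that passed, 4.26% were lower and 4.34% higher by that much. Sema4a, a membrane semaphorin of dendritic cells and lymphocytes that binds plexin-B2 and plexin-D1, stood at 171 in RANKhigh c-Fmslow cells and 303 in RANKlow c-Fmshigh cells, a 1.77-fold lower level (-0.82). It was below 2-fold, and 733 genes (6.61%) lay at least as far in this direction. Both values were clearly above the guides.

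Sema4d, also known as CD100, a semaphorin of lymphocytes and of osteoclasts, was the only member with several probe sets, and these disagreed. The probe set annotated to curated transcripts stood at 264 in RANKhigh c-Fmslow cells and 250 in RANKlow c-Fmshigh cells (0.08). The other, annotated to a single predicted transcript, stood at 108 and 189 (-0.81). Their average gave 169 and 217 (-0.37). The gap between the probe sets was 0.89 on the log2 scale, a size reached or exceeded by 23 (4.52%) of 509 genes that had a pair of probe sets above the filter. The direction of the Sema4d difference depends on the probe set, and whether the probe sets report different transcripts was not tested.

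Sema3a and Sema6d were not measurable. Sema3a, the secreted ligand of neuropilin-1, stood at 37.7 in RANKhigh c-Fmslow cells and 40.5 in RANKlow c-Fmshigh cells. Sema6d, the membrane ligand of plexin-A1, stood at 74.8 and 66.0. All 4 values lay below the guides, so that no detection and no difference is claimed, and both genes failed the level filter.

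Promoter sequences of the members were taken from RefSeq, build GRCm38.p6, which held 16 windows for 9 of the 10 members, several genes having more than 1 start. Each window spans the 250 bases before an annotated start. Below are the windows of Nrp1 and Plxnb2, the members at least 2-fold apart, and of Plxnc1, the member with the smallest difference, in each case at the most upstream start listed. The Nrp1 window lies at chr8:128358823-128359072 on the plus strand, that of Plxnb2 at chr15:89180789-89181038 on the minus strand and that of Plxnc1 at chr10:94944846-94945095 on the minus strand. Each sequence reads 5′ to 3′ on the gene's strand, and capitals mark matches on either strand to any of 5 motifs: the GC box GGGCGG, the core GAGGAA that PU.1 and other ETS factors bind, the C/EBP motif TTGCNNAA, the AP-1 motif TGANTCA and the TATA motif TATAAA.
Nrp1: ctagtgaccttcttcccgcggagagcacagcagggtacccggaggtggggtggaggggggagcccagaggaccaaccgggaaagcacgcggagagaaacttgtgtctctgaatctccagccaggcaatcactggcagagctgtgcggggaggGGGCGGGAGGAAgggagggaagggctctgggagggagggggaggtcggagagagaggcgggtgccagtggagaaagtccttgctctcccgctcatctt
Plxnb2: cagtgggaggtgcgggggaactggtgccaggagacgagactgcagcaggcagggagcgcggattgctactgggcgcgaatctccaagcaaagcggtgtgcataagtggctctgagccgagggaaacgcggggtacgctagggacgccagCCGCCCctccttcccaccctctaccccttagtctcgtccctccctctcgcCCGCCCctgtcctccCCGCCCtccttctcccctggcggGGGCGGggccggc
Plxnc1: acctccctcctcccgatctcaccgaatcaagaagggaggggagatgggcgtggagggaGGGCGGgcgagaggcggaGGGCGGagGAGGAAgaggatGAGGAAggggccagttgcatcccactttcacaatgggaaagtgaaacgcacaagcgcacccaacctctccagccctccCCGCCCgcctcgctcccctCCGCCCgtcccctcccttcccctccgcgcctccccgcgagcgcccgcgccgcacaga

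The Nrp1 window held 1 GC box and, directly beside it, 1 GAGGAA core. The Plxnb2 window held 4 GC boxes and none of the other motifs. The Plxnc1 window held 4 GC boxes and 2 GAGGAA cores. Of all 32851 promoter windows of this length, 32.7% held a GC box and 23.3% a GAGGAA core. The C/EBP, AP-1 and TATA motifs, found in 9.56%, 6.75% and 12.4% of all windows, had no match in the printed windows. A match is a description of letters and not of a bound site. The windows were 64.4%, 69.2% and 68.8% G and C for Nrp1, Plxnb2 and Plxnc1, against a median of 52.4% over all windows. Over the members' windows this share ran from 40.8% for Sema3a to 75.2% for Plxnb1.

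Most of the other 21 genes of the families were too dim to be counted. Only 4 of them passed the level filter, and 14 were below the guide on both arrays. Of the 4, 0 were at least 2-fold apart, beside 4.26% lower and 4.34% higher among all genes that passed. So few genes give no verdict on the families. Sema4b, a class 4 membrane semaphorin, had the largest difference of the other ligands, at 246 in RANKhigh c-Fmslow cells and 131 in RANKlow c-Fmshigh cells (0.91, 1.88-fold higher). Its direction was opposite to that of Sema4a. The second neuropilin gene, Nrp2, stood at 79.9 in RANKhigh c-Fmslow cells, below the guide, and 126 in RANKlow c-Fmshigh cells, and was at least 1.51-fold lower in RANKhigh c-Fmslow cells, in the direction of Nrp1. Sema7a, the ligand of plexin-C1, was below the guides at 82.6 and 73.4, as were Sema4g (74.8 and 60.8), Sema6a (67.6 and 56.6), Plxna2 (73.0 and 68.9), Plxna4 (70.9 and 75.8) and Plxnb3 (65.6 and 60.4). Plxna3 stood just above them at 92.1 and 82.7.

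Co-receptors differed in both directions. Of 16 measured, 9 passed the level filter. Of these, 3 were at least 2-fold lower in RANKhigh c-Fmslow cells and 1 was higher by that much, and the median over the 16 was -0.20. Beside these counts, 4.26% of all genes that passed were lower and 4.34% higher by 2-fold or more. Met, a receptor tyrosine kinase that associates with plexin-B1, stood at 56.4 in RANKhigh c-Fmslow cells and 512 in RANKlow c-Fmshigh cells, at least 6.12-fold lower. The integrin gene Itga1, whose product pairs with the beta-1 chain in a receptor for Sema7A, was at least 6.27-fold lower at 66.4 and 525. L1cam, an adhesion molecule of the Sema3A receptor complex in neurons, stood at 192 and 389 (2.03-fold lower), close to the threshold. With 50 added to both intensities, the number of co-receptors at least 2-fold lower was 2 in place of 3.

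Cd72, the B cell receptor for Sema4D, was the exception in direction. It stood at 1513 in RANKhigh c-Fmslow cells and 429 in RANKlow c-Fmshigh cells, 3.52-fold higher. The B lineage, neutrophil and erythroid medians given below were also above 0. The part of any of these cell types in the Cd72 values was not tested. Tyrobp stood at 3656 and 6005 (1.64-fold lower), Trem2 at 177 and 166, and Ptprc, encoding the pan-leukocyte phosphatase CD45, at 2400.1 and 3029. Timd2, a receptor of Sema4A in the mouse, was below the guides at 47.7 and 43.5.

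Of the intracellular transducers of plexins, few were 2-fold apart. Of 31 measured, 26 passed. Of these, 2 were at least 2-fold lower in RANKhigh c-Fmslow cells and 2 were higher by that much, and the median over the 31 was -0.02. These are 2 of 26 each way, beside 4.26% and 4.34% of all genes, and 1 of the higher, Mical3, lay on the threshold. Rnd3, a small GTPase of the kind that binds the intracellular part of plexins, stood at 418 in RANKhigh c-Fmslow cells and 2177 in RANKlow c-Fmshigh cells (5.21-fold lower). Dpysl2, encoding the collapsin response mediator CRMP2 of Sema3A signalling, stood at 158 and 358 (2.26-fold lower). Arhgef12, a guanine nucleotide exchange factor that binds B-class plexins, stood at 479 and 115 (4.16-fold higher), and Mical3, of the family of plexin-associated monooxygenases, at 240 and 120 (2.00-fold higher). Rac1 differed by 1.31-fold (1688 and 2203), and Farp2, the Rac exchange factor of plexin-A receptors, was below the guides at 67.9 and 76.8. Of 5 processing proteases none was 2-fold apart. The sheddase gene Adam17 stood at 526 and 917 (-0.80), Adam9 at 196 and 299 (-0.61), Furin at 127 and 149 (-0.23), and Mmp14, whose product cleaves Sema4D, was below the guides.

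**Figure D3:**
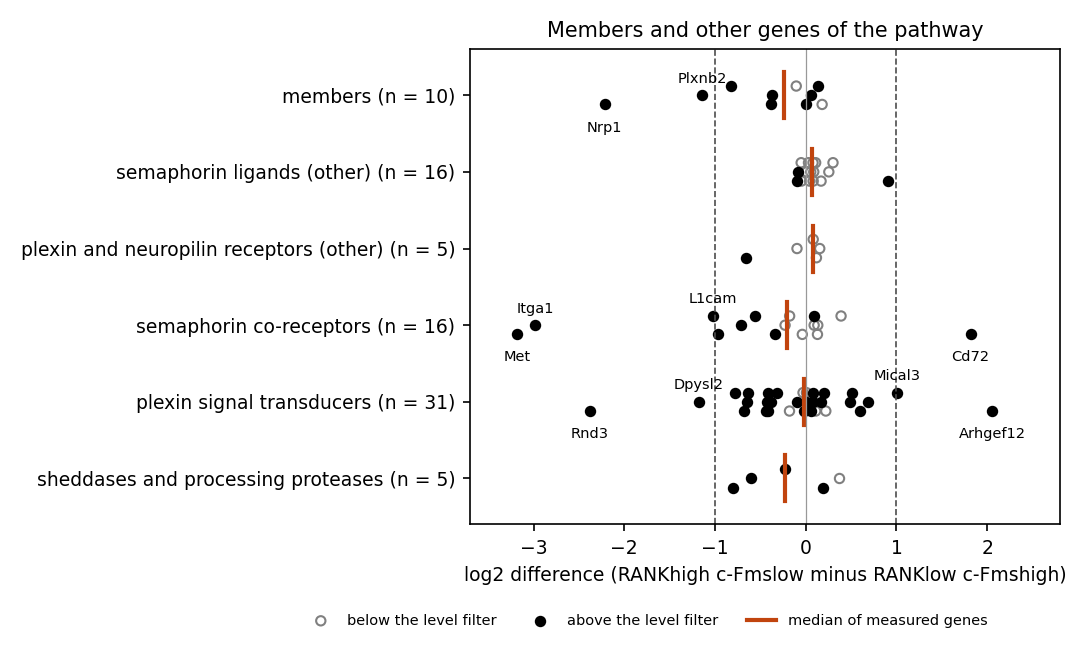
Log2 difference (RANKhigh c-Fmslow minus RANKlow c-Fmshigh) of each gene by list, with filled points above and open points below the level filter and a bar at the median of each list; dashed lines mark 2-fold, and genes above the filter past them are named. The other 21 semaphorin, plexin and neuropilin genes lie within the lines, whereas Met (-3.18), Itga1 (-2.98) and Rnd3 (-2.38) lie to the left and Cd72 (1.82) and Arhgef12 (2.06) to the right.

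The populations differed in markers of several cell types, and these values stand beside the results above. All 10 measured monocyte markers were below 0, 6 of them at least 2-fold, with a median of -1.77, and their summed intensity was 8965 in RANKhigh c-Fmslow cells and 27130 in RANKlow c-Fmshigh cells. Among them were Ccr2 (-2.19) and F13a1 (-3.01). Conventional dendritic cell markers had a median of -0.70, with 2 of 6 at least 2-fold lower, and summed to 534 and 1075. All 12 macrophage markers together had a median of -0.02, 3 of them lower and 2 higher by 2-fold or more, and summed to 3112 and 5020.4. The part of these cell types in the lower Nrp1, Plxnb2 and Sema4a values was not tested.

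Lymphoid and granulocyte markers ran the other way. All 9 measured B lineage markers were at least 2-fold higher in RANKhigh c-Fmslow cells (median 2.03, summed intensity 11889 against 3091), and so were 4 of 9 T cell markers (median 0.73, 2937 against 1018) and 9 of 13 neutrophil markers (median 1.5, 47928 against 19259). Sema4d, which lymphocytes express, stood at -0.37 on average, at 0.08 for its probe set for curated transcripts and at -0.81 for the other. The part of lymphocytes in the Sema4d values was not tested. All 7 measured erythroid markers, all 8 eosinophil and basophil markers and 3 of 7 NK cell markers were also at least 2-fold higher (medians 2.44, 2.28 and 0.91). Neuropilin-1 is a surface marker of plasmacytoid dendritic cells in humans. All 7 measured markers of these cells were above 0 here, 2 of them by 2-fold or more (median 0.59, 3199 against 1676). The part of these cells in the Nrp1 values was not tested.

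Markers of endothelium, which uses Nrp1 and Plxnd1, were mostly low, apart from Pecam1 at 598 against 412 (0.54). Of 9 genes, 3 passed the level filter, 5 were below the guide on both arrays, among them Cdh5, Kdr and Tek, and 0 were 2-fold apart (median 0.13, summed intensity 1212 against 977). Osteoblast and stromal markers had a median of -0.10, with 4 of 7 below the guide on both arrays (543 against 589). Osteoclast markers had a median of -0.03 over 9 genes, 5 of them below the guide on both arrays (1302 against 829). Among the 3 that passed the filter, 2 exceeded 2-fold in favour of RANKhigh c-Fmslow cells, Acp5 (546 against 188) and Mmp9 (277 against 75.2, at least 3.38-fold). The other, Itgb3, ran in the opposite direction (131 against 209, -0.67). Ctsk, Calcr and Dcstamp were among those below the guide.

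**Figure D4:**
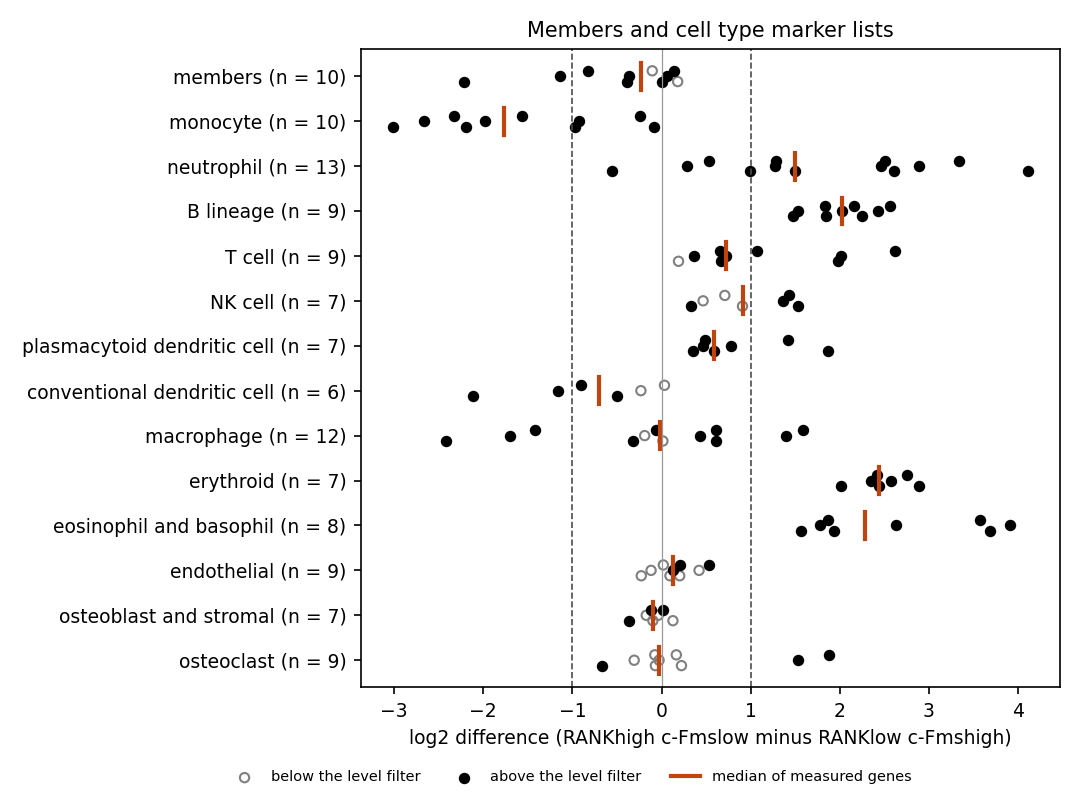
Log2 difference (RANKhigh c-Fmslow minus RANKlow c-Fmshigh) of the 10 members and of each gene of the cell type marker lists, with filled points above and open points below the level filter and a bar at each median; dashed lines mark 2-fold. The monocyte median (-1.77) lies on the same side as Nrp1 and Plxnb2, and the B lineage (2.03), neutrophil (1.5) and erythroid (2.44) medians on the other.

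Differences of the members were recomputed under 5 other ways of preparing the values. Keeping probe sets that name several genes changed no member, and taking the brightest probe set changed only Sema4d. The Nrp1 difference ran from -2.22 to -1.74, that of Plxnb2 from -1.17 to -0.85 and that of Sema4a from -0.83 to -0.67. With 50 added to both intensities, a setting that shrinks differences of dim genes, Plxnb2 no longer reached 2-fold (-0.85). Sema4d alone changed sign, at 0.08 when the brighter of its probe sets was taken in place of the mean.

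**Figure D5:**
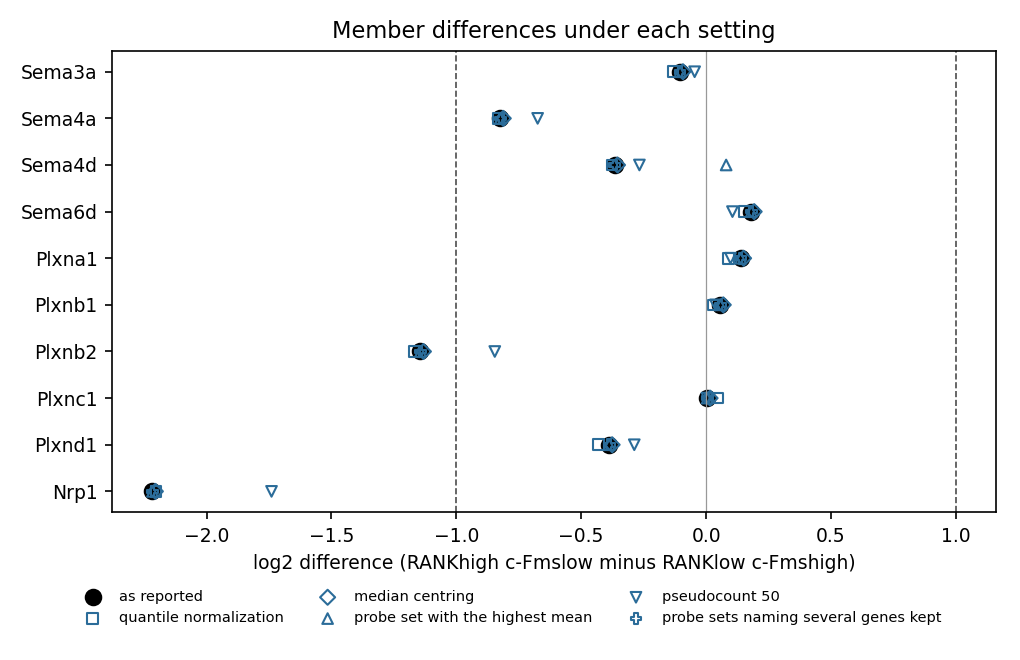
Log2 difference (RANKhigh c-Fmslow minus RANKlow c-Fmshigh) of each member as reported (filled circles) and under 5 alternative settings (open symbols); dashed lines mark 2-fold. The points of each member lie close together, except for the pseudocount of 50, which moved Nrp1 to -1.74 and Plxnb2 to -0.85, and the choice of the brighter probe set, which moved Sema4d to 0.08.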

How the data were processed

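The deposited table holds linear intensities, 1 per probe set and array, for 28815 probe sets. The submitters' processing notes name GCOS 1.4 and RMA. What each did, the normalization and a genome build are not given. The platform annotation, of 2016, pairs 21780 probe sets with a single gene each, and the gene identifiers of all 10 members matched the RefSeq table of GRCm38.p6. Intensities were put on the log2 scale with no pseudocount, and probe sets of a gene were averaged (Python 3.11.15, pandas 2.3.3). A fold whose lower value was not above the guide is a bound against the guide, written "at least".

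With 1 array per group no test was run. The precision is limited by the number of arrays.

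Text names all members, genes of fixed lists at least 2-fold apart or among the 4 with the largest absolute difference, direct partners, and a few markers. Members and lists were chosen with earlier results of these data known. Alternatives tried were quantile normalization, median centring, the brightest probe set, a pseudocount of 50, probe sets naming several genes, other level filters and 1.5-fold.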

Additional observations from a re-analysis of the deposited data

How the results depend on the processing

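Across 8 alternative settings, 144 of 159 recomputed values stayed within the tolerance and 15 moved. This tally is not a measure of stability. Some values could not move, such as the brightest probe set of a member with a single probe set, and some counts are parts of others. No member at least 2-fold apart changed sign. The tolerance was 0.19 on the log2 scale, the median gap between the 2 probe sets of a gene, and 1.5 times for a count. Member differences were recomputed under 5 of the settings, which gave 50 values, and 49 kept their sign. Many of them could not change. Keeping probe sets that name several genes altered no member, and the brightest probe set altered only Sema4d. Median centring moved every difference by the same small amount. The exception in sign was Sema4d, at 0.08 with the brighter probe set. That choice also brought the median over the 10 members to -0.05 in place of -0.24. With a pseudocount of 50 the number of members at least 2-fold lower in RANKhigh c-Fmslow cells was 1, Nrp1, in place of 2, and the number of listed pathway genes at least 2-fold apart was 5 in place of 8. The share of all genes at least 2-fold apart fell as well with this pseudocount, to 5.68% in place of 8.59%. At 1.5-fold the number of listed genes was 20, and Sema4a joined the members, while 22.9% of all genes passed. Mical3, 2.00-fold higher, lies on the threshold: after quantile normalization the number of transducers at least 2-fold higher was 1 in place of 2. Centring and quantile normalization shifted the median of all genes by less than 0.1. No paired analysis was possible because each group has 1 array. Leaving out a replicate was likewise not possible. Values close to the guide, as for Nrp1 and Plxnb2 in RANKhigh c-Fmslow cells, limit how well the size of a fold is known.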
